A study of Mus musculus and Rattus norvegicus with 30 samples.

Results

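The genes described here encode the metallothioneins, their transcriptional regulator MTF-1 and a pair of zinc transporters, in neonatal rat heart muscle cells and in mouse left ventricle. They were matched by symbol to Mt1, Mt2 (Mt2A in rat), Mt3, Mtf1, Slc30a1 and Slc39a10. This gave 7 of 32545 rat genes, with Mt1 present under 2 identifiers, and 6 of 54307 mouse genes. Of these 13 genes, 12 passed the filter on low counts. The genes were selected on measured values, namely their responses to the agonist 915 in the rat cells, so those responses are given below as a description without a test.

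Metallothioneins are small cysteine-rich proteins that bind zinc and copper and buffer free zinc in the cytosol. MTF-1 senses free zinc and binds metal response elements in the promoters of the metallothionein genes and of Slc30a1, whose product ZnT1 exports zinc across the plasma membrane. Slc39a10 encodes ZIP10, which imports zinc, and in mouse liver its transcription is known to be repressed by MTF-1 when zinc is plentiful. In the heart, metallothioneins are known as inducible protectors against metal and oxidant injury, while Mt3 is best known from the brain.

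The rat groups were neonatal rat ventricular myocytes (NRVM), primary cells isolated from pups of postnatal day 3. They carried siRNA against ERRalpha and ERRgamma, the estrogen-related receptors that drive mitochondrial genes in heart, or a scramble siRNA, typically at 25 nM. For 24 hours they were exposed to the ERR agonist 915 (10 µM) or to DMSO as vehicle. The 4 groups, each of 3 libraries, were knockdown cells with 915, knockdown cells with DMSO, scramble cells with 915 and scramble cells with DMSO. All cells had been preplated to remove fibroblasts, cultured with bromodeoxyuridine and moved to a medium with insulin, transferrin and selenium. The labels do not state separate isolations or dishes, so rat p-values measure only the spread between these libraries, which may be technical.

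The mouse groups were left ventricles of WT mice that had undergone transverse aortic constriction (TAC), a pressure overload of the heart, or a sham operation. Mice were given the ERR agonist 332 by IP injection, or vehicle, for 6 weeks after surgery. There were 5 TAC hearts on 332, 5 TAC hearts on vehicle, 5 sham hearts on 332 and 3 sham hearts on vehicle. The deposited tables fall into 2 file sets by their sample-sheet and lane numbers: replicates 1 to 3 of each group in set 1 and replicates 4 and 5 in set 2, with no sham vehicle heart in set 2. The labels give no strain or age.

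Library totals were 12013379 to 18315341 counts in rat and 11375917 to 16599930 in mouse. The targeted receptors were low in the knockdown libraries. Esrra stood at 12.7 to 18.9 CPM (counts scaled to library size) with 915 and 14 to 21.9 CPM with DMSO in knockdown cells, against 227 to 229 and 169 to 199 CPM in scramble cells. Esrrg stood at 16.1 to 25.1 and 17.5 to 18.7 CPM in knockdown cells, against 263 to 302 and 130 to 131 CPM in scramble cells. All 6 cardiomyocyte markers were detected in both species. In the rat cells all 5 fibroblast markers were detected too, and their summed level in the DMSO libraries, 7914 to 9115 CPM in knockdown and 8419 to 9665 CPM in scramble cells, was as high as or higher than that of the cardiomyocyte markers, 5719 to 6067 and 7259 to 8000 CPM. Alb and Umod, markers of liver and kidney, were at or near 0.

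The promoter windows of the mouse genes are shown first, since these windows differ in how often they carry the letters that MTF-1 is known to bind. Each window runs from 250 bases before to 50 bases after the RefSeq start in GRCm38.p6, and capitals mark a metal response element core, searched on both strands as TGCACNC or TGCGCNC, so that a core of the minus strand is printed as its reverse complement. Mt2 (chr8:94172368-94172667, plus strand), Mt1 (chr8:94178839-94179138, plus strand) and Slc30a1 (chr1:191906531-191906830, plus strand) read as follows.
Mt2: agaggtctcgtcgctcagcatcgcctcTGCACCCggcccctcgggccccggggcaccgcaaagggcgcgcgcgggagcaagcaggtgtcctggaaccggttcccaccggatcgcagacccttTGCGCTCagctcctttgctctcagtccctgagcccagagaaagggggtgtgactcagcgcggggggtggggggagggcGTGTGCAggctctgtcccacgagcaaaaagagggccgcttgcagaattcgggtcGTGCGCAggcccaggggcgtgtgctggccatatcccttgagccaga
Mt1: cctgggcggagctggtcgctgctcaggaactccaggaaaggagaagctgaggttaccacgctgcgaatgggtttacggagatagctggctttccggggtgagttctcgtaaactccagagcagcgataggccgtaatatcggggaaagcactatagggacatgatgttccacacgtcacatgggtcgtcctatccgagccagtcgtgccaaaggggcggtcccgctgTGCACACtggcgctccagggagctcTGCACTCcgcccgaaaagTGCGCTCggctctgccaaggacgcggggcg
Slc30a1: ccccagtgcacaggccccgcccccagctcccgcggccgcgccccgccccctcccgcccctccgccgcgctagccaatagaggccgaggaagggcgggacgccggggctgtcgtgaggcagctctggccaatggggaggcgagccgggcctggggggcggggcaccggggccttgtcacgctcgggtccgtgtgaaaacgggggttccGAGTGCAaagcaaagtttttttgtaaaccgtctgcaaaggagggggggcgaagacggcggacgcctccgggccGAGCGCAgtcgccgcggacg
The Mt2 window held 4 cores, beginning 223, 128 and 50 bases before the start and at base 5 after it. At least 4 were found in 0.517% of all 32851 promoter windows of this length. Mt1 held 3, 23 bases before the start and at bases 3 and 21 after it, a number that 1.97% of windows reach. Slc30a1 held 2, 43 bases before the start and at base 31 after it, which 7.11% reach. In these windows no core overlapped another. The Mt3 window held 1 core, as 25.7% of windows do at the least, and those of Mtf1 and Slc39a10 (2 starts) held none. The element that the ERR proteins are known to bind, searched as TNAAGGTCA, was in none of the members' windows and in 1.28% of all windows. A match of letters describes the sequence and does not show binding. Cores outside these windows were not searched, so the numbers depend on where the annotated start lies. Rat sequences were not used here.

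In the rat cells Mt1 and Mt2A were 6.07-fold to 9.95-fold higher with 915, with and without the receptor knockdown. Mt1 on chromosome 19 (ENSRNOG00000025764, 11302125 to 11302938, minus strand, rn6) stood at 453, 414 and 523 CPM in knockdown cells with 915 and at 62.7, 49.4 and 59.6 CPM in knockdown cells with DMSO. Scramble cells gave 803, 765 and 806 CPM with 915, against 91.7, 77.2 and 78.6 CPM with DMSO. The groups with 915 lay far above the groups with DMSO and no libraries overlapped. The 915 effect was a log2 fold change of 3.02 (SE 0.11), or 8.1-fold, in knockdown cells and 3.26 (SE 0.11), or 9.58-fold, in scramble cells.

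Mt2A, the other major metallothionein (ENSRNOG00000043098, chromosome 19, 11307967 to 11308740, minus strand), behaved alike. Its levels were 463, 427 and 497 CPM in knockdown cells with 915, against 83.5, 66.5 and 78.4 CPM with DMSO. Scramble cells held 665, 633 and 623 CPM with 915, against 83.5, 76.6 and 86.5 CPM with DMSO. Again the 915 and DMSO libraries did not overlap, and the 2 DMSO groups did overlap each other. The log2 fold change with 915 was 2.60 (SE 0.08) in knockdown cells and 2.96 (SE 0.08) in scramble cells.

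The second Mt1 identifier (ENSRNOG00000038047, chromosome 17, 78793336 to 78793724, plus strand) is annotated with a span of 389 bases equal to its exon length, so without an intron. It gave 177, 139 and 149 CPM in knockdown cells with 915, against 18.2, 14.4 and 21.1 CPM with DMSO. In scramble cells it gave 188, 188 and 180 CPM with 915, against 16.0, 15.2 and 24.7 CPM with DMSO. Its response to 915 was like that of the chromosome 19 gene at a lower level, while its knockdown effects were smaller (below). Its share of all Mt1 counts was 25.1% ± 2.93 in knockdown cells with 915, 23.7% ± 2.12 in knockdown cells with DMSO, 19% ± 0.732 in scramble cells with 915 and 18.4% ± 4.83 in scramble cells with DMSO (SD, n = 3 each). Reads of near-identical copies could have been split between the 2 identifiers, so the share is uncertain. Summed over both, Mt1 had log2 fold changes with 915 of 3.04 (SE 0.10) in knockdown and 3.27 (SE 0.10) in scramble cells.

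**Figure D1:**
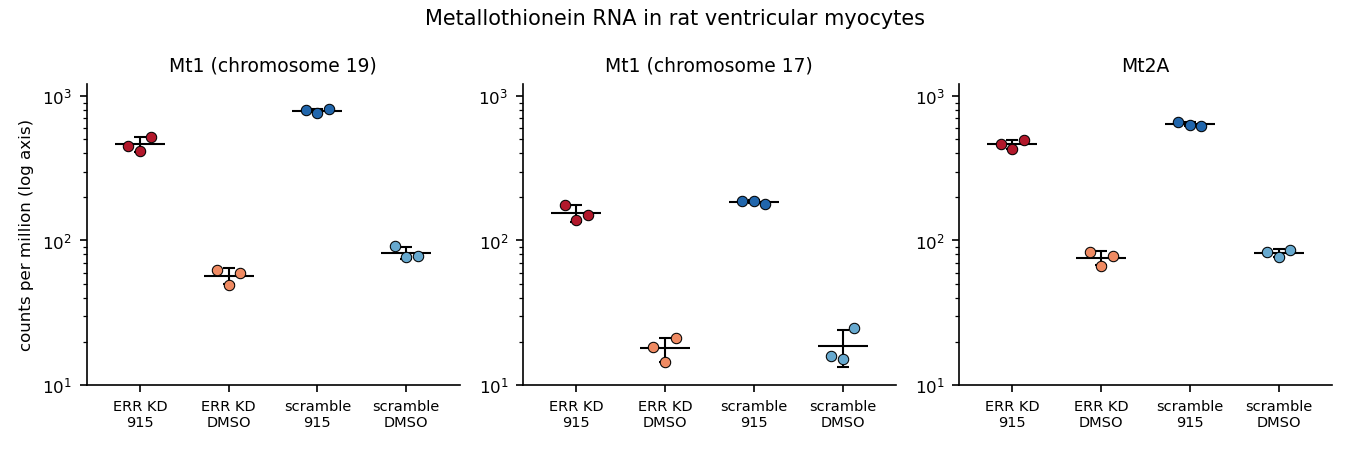
CPM of the 2 Mt1 identifiers and of Mt2A in each rat library, on a log axis. Points are libraries, horizontal lines are group means and bars are SDs over 3 libraries; ERR KD marks cells with siRNA against ERRalpha and ERRgamma. In each panel both 915 groups lie above both DMSO groups, as in Mt2A with 427 to 497 and 623 to 665 CPM against 66.5 to 83.5 and 76.6 to 86.5 CPM.

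Together the 2 Mt1 identifiers and Mt2A took 0.114% ± 0.00929 of all counts in knockdown cells with 915 and 0.0155% ± 0.00193 with DMSO, and 0.155% ± 0.00384 in scramble cells with 915 and 0.0176% ± 0.00107 with DMSO (SD, n = 3 each). On a scale per length, the authors' FPKM, the order of levels in scramble cells with 915 was Mt1 on chromosome 19 (2264), Mt2A (1669), Mt1 on chromosome 17 (473), Slc30a1 (28.2), Slc39a10 (4.70), Mt3 (0.981) and Mtf1 (0.200). Mt1 on chromosome 19 and Mt2A were neighbours whose ranges stood apart only in that group, at 2188 to 2310 and 1627 to 1729 FPKM. Within each knockdown library with 915, Mt1 was the higher (1307 against 1217, 1184 against 1112 and 1507 against 1305 FPKM). Within each knockdown library with DMSO, Mt1 was the lower (179 against 217, 141 against 173 and 169 against 203 FPKM). The ranges of the 2 genes overlapped in knockdown cells with 915 (1184 to 1507 and 1112 to 1305 FPKM), in knockdown cells with DMSO (141 to 179 and 173 to 217 FPKM) and in scramble cells with DMSO (221 to 259 and 200 to 224 FPKM). Mt3 and Mtf1, at the bottom, overlapped in all groups except knockdown cells with 915.

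Slc30a1, the zinc exporter (ENSRNOG00000004749, chromosome 13, 110677810 to 110681683), moved little. It stood at 81.3, 79.4 and 69.9 CPM in knockdown cells with 915, against 71.1, 69.3 and 72.1 CPM with DMSO. Scramble cells held 76.3, 72.8 and 72.6 CPM with 915, against 58.4, 58.8 and 57.5 CPM with DMSO. The scramble DMSO group was the lowest, below every other library, while in knockdown cells the 915 and DMSO libraries overlapped. The log2 fold change with 915 was 0.12 (SE 0.06) in knockdown and 0.34 (SE 0.06) in scramble cells.

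Slc39a10, the zinc importer (ENSRNOG00000011677, chromosome 9, 60039297 to 60070552), went the other way. Its levels were 34.8, 29.5 and 25.8 CPM in knockdown cells with 915, against 52.4, 49.4 and 53.4 CPM with DMSO. In scramble cells they were 24.8, 20.8 and 25.1 CPM with 915, against 33.3, 40.5 and 38.8 CPM with DMSO. The 915 libraries lay below the DMSO libraries in both kinds of cell, with log2 fold changes of -0.79 (SE 0.10) in knockdown and -0.67 (SE 0.10) in scramble cells.

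Mtf1 and Mt3 were near the detection limit of the rat libraries. Mtf1 (ENSRNOG00000050240, chromosome 5, 142332607 to 142376370) had 9 to 30 counts in knockdown cells with 915, 16 to 28 with DMSO, 13 to 16 in scramble cells with 915 and 19 to 31 with DMSO. Its log2 fold change with 915 was 0.19 (SE 0.43) in knockdown and -0.91 (SE 0.43) in scramble cells, where the 3 libraries with 915 lay below the 3 with DMSO. Mt3 (ENSRNOG00000018958, chromosome 19, 11324698 to 11326139) had 6 to 11, 0 to 11, 1 to 10 and 1 to 3 counts in the same 4 groups, and its 915 and DMSO libraries overlapped in both kinds of cell. Leaving out 1 library moved the Mt3 value with 915 in knockdown cells between 0.30 and 1.98 (without DMSO replicates 1 and 3 of the knockdown). The family's remaining rat genes are no members: Mt4 had no count in any library, and Mt1m had 28, 23 and 27 counts in knockdown cells with 915, against 4, 0 and 2 with DMSO, and 24, 24 and 28 in scramble cells with 915, against 8, 2 and 2 with DMSO.

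**Figure D2:**
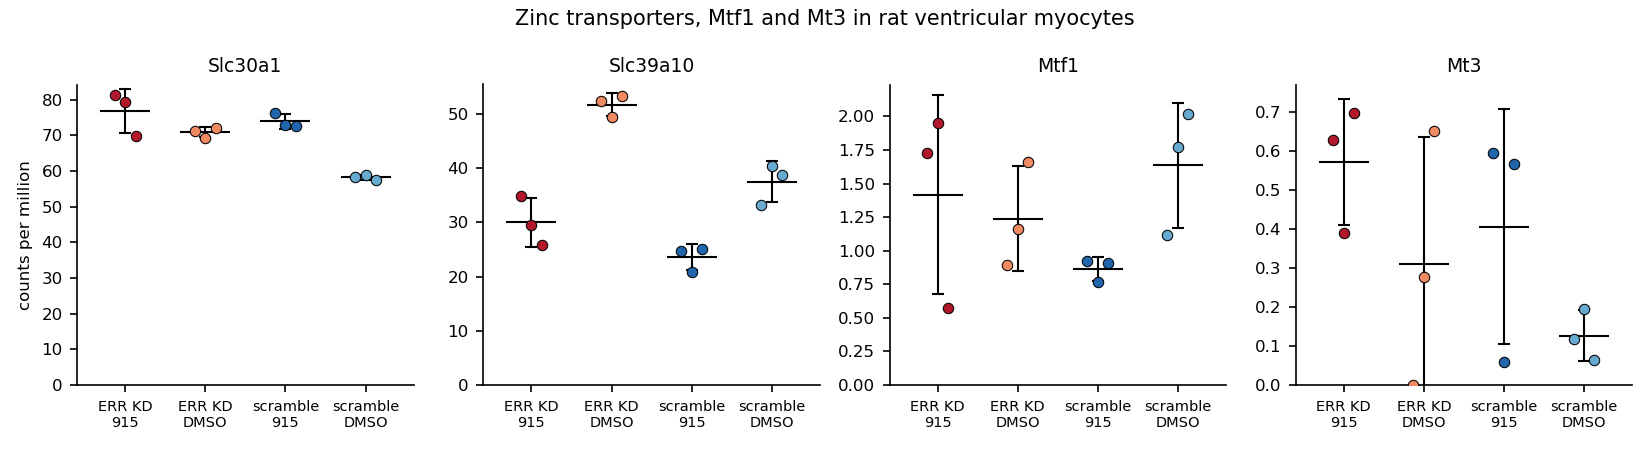
CPM of Slc30a1, Slc39a10, Mtf1 and Mt3 in each rat library, on linear axes from 0. Points are libraries, horizontal lines are means and bars are SDs over 3 libraries, cut at 0; ERR KD marks the receptor knockdown. Slc39a10 lies lower with 915 in both kinds of cell (25.8 to 34.8 against 49.4 to 53.4 CPM in knockdown cells), while Slc30a1 differs mainly in scramble cells with DMSO (57.5 to 58.8 CPM).

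With 915, 3 members were higher and 1 lower past an adjusted p of 0.05 in knockdown cells, in a fit that called 35.7% of 15181 genes. In scramble cells 4 were higher and 1 lower, in a fit that called 42.2%. These contrasts chose the members, so nothing is read from the counts. Where fewer cells of a type and less RNA per cell lower a gene in bulk RNA, they cannot be told apart. Cell type markers also differed with 915, though not all in the same direction within a type. The 4 smooth muscle markers summed to 1943 to 2318 CPM with 915 and 4327 to 4942 CPM with DMSO in knockdown cells. In scramble cells they summed to 1562 to 1906 and 4270 to 4510 CPM. Past the threshold 1 rose and 3 fell in knockdown cells, and 0 rose and 3 fell in scramble cells. The 5 fibroblast markers summed to 5313 to 6896 and 7914 to 9115 CPM in knockdown cells, and to 4392 to 4947 and 8419 to 9665 CPM in scramble cells. Of these 1 rose and 2 fell in knockdown cells, and 1 rose and 3 fell in scramble cells. The 5 leukocyte markers, with Cd3e at 0, summed to 64.0 to 80.6 and 50.1 to 52.2 CPM in knockdown cells, and to 37.1 to 38.4 and 26.4 to 31.9 CPM in scramble cells. Of 4 tested leukocyte markers 2 rose in knockdown cells and 1 in scramble cells, and 0 fell. The 6 cardiomyocyte markers summed to 4180 to 5238 CPM with 915 and 5719 to 6067 CPM with DMSO in knockdown cells. In scramble cells they summed to 7230 to 7953 and 7259 to 8000 CPM. Of the 6, 1 rose and 3 fell in knockdown cells, and 1 rose and 2 fell in scramble cells. The part of these cell types in the members' levels was not tested.

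The response to 915 itself was compared between knockdown and scramble cells. The difference of the log2 effects, knockdown minus scramble, was -0.24 (SE 0.15) for Mt1 on chromosome 19, -0.20 (SE 0.27) for Mt1 on chromosome 17 and -0.36 (SE 0.10) for Mt2A. For Slc30a1 it was -0.23 (SE 0.09), for Slc39a10 -0.12 (SE 0.14), for Mtf1 1.09 (SE 0.61) and for Mt3 -0.74 (SE 1.25). Leaving out 1 library at a time moved the difference between -0.45 (without replicate 3 of the scramble cells with DMSO) and -0.07 for Mt1 on chromosome 17, and between -1.32 and 0.36 (without replicates 1 and 3 of the knockdown cells with DMSO) for Mt3. The 915 effects on Mt1 and Mt2A exceeded 2.5 on the log2 scale in knockdown cells, where Esrra and Esrrg were low but still detected. Whether the response needs the receptors was not tested. The fit by edgeR's quasi-likelihood test called 0 of the 7 members and 3.73% of all genes. At an unadjusted p under 0.05 it had 2 members, beside 2479 of all 15181 genes. DESeq2 called 1 member, Mt2A, but its number over all genes is not given here, so nothing is read from that call. The same measure chose the members, so these differences stand as a description.

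The receptor knockdown was also compared at each level of 915. Under 915 its effect is the sum of its effect in DMSO cells and of the difference of the 915 effects above, so it shares values with the choice of the members and is given as a description. Mt1 on chromosome 19 averaged 464 ± 55.4 CPM in knockdown cells and 791 ± 23.1 CPM in scramble cells (SD, n = 3 each), a log2 fold change of -0.77 (SE 0.10). Mt2A averaged 462 ± 35.3 and 640 ± 21.8 CPM, a log2 fold change of -0.47 (SE 0.07). No library of the knockdown reached the scramble libraries in either gene. Mt1 on chromosome 17 averaged 155 ± 19.6 and 185 ± 4.59 CPM (-0.26, SE 0.16), again without overlap. Slc39a10 averaged 30.0 ± 4.52 CPM in knockdown and 23.6 ± 2.43 CPM in scramble cells (0.35, SE 0.10). Its libraries did not overlap, but 2 fits with 1 library left out no longer passed the adjusted threshold. The value was 0.22 without replicate 1 of the knockdown cells with 915, the library with the highest level. It was 0.26 without replicate 2 of the scramble cells with 915. Slc30a1 (0.06, SE 0.06), Mtf1 (0.70, SE 0.44) and Mt3 (0.49, SE 0.78) overlapped between the groups. In the fit 1 member was higher and 2 lower of 7 past the adjusted threshold, where 33.9% of all genes were called, and nothing is read from that count.

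In DMSO cells the knockdown was compared too. The DMSO libraries also entered the 915 responses that chose the members, so the members' values and adjusted p here are a description, not a test. Mt1 on chromosome 19 fell to 57.2 ± 6.94 CPM in knockdown cells, against 82.5 ± 7.96 CPM in scramble cells (log2 fold change -0.53, SE 0.11; adjusted p = 0.00512, edgeR quasi-likelihood F-test, adjusted over all genes by Benjamini-Hochberg). Mt2A averaged 76.1 ± 8.72 and 82.2 ± 5.10 CPM (-0.11, SE 0.08; edgeR adjusted p = 0.353) and Mt1 on chromosome 17 averaged 17.9 ± 3.37 and 18.6 ± 5.27 CPM (-0.06, SE 0.21; edgeR adjusted p = 0.896), and the libraries of both overlapped between groups. Slc30a1 rose to 70.8 ± 1.43 CPM in knockdown cells, against 58.2 ± 0.698 CPM in scramble cells (0.28, SE 0.06; edgeR adjusted p = 0.00161). Slc39a10 rose to 51.7 ± 2.06 CPM, against 37.5 ± 3.79 CPM (0.47, SE 0.10; edgeR adjusted p = 0.000981). In these libraries exporter and importer were both higher in knockdown cells, with no overlap. Mtf1 (-0.40, SE 0.42) and Mt3 (1.23, SE 1.00) did not pass. In all 2 members rose and 1 fell of 7, in a fit that called 20.4% of genes. This count of 3 is not read as particular to the members. Leukocyte markers were higher in the knockdown at both levels of 915 (values above), 3 of 4 tested markers rose in each, and cardiomyocyte markers summed to 4180 to 5238 CPM in knockdown and 7230 to 7953 CPM in scramble cells under 915, and to 5719 to 6067 and 7259 to 8000 CPM with DMSO. Of the 6 cardiomyocyte markers 0 rose and 6 fell under 915, and 1 rose and 3 fell with DMSO. The part of these cell types was not tested. With the 2 Mt1 identifiers summed, the log2 fold change of Mt1 was -0.66 (SE 0.09) under 915 and -0.43 (SE 0.10; edgeR adjusted p = 0.00666) with DMSO.

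In mouse ventricle Mt2 (ENSMUSG00000031762.8) was the member that differed most between groups, and it followed the surgery. It stood at 13.8, 23.7, 37.9, 29.5 and 34.3 CPM in TAC hearts on 332 and at 17.2, 15.2, 23.9, 10.3 and 10.6 CPM in TAC hearts on vehicle. Sham hearts held 4.12, 10.5, 4.77, 8.28 and 7.20 CPM on 332 and 7.83, 5.91 and 7.03 CPM on vehicle. All TAC hearts on 332 lay above all sham hearts on 332, and all TAC hearts on vehicle above all sham hearts on vehicle. Within the TAC hearts the ranges on 332 and on vehicle overlapped.

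Between TAC and sham hearts on 332, Mt2 rose with a log2 fold change of 1.99 (SE 0.33; edgeR adjusted p = 0.000781), or 3.96-fold. Replicates of file set 1 averaged 25.1 CPM after TAC and 6.46 CPM after sham surgery, and those of set 2 averaged 31.9 and 7.74 CPM. The contrast passed in each file set fitted alone. Between TAC and sham hearts on vehicle, Mt2 rose 2.25-fold (log2 1.17, SE 0.41; edgeR adjusted p = 0.0475), close to the threshold. That call was lost without any 1 of replicates 1, 2 and 3 of the TAC vehicle hearts or of the 3 sham vehicle hearts, with log2 values of 0.92 to 1.26 and edgeR adjusted p of 0.0713 to 0.142 over those fits and the one with the replicate number as a block. In file set 1 alone, which holds the only sham vehicle hearts, the means were 18.8 CPM after TAC and 6.93 CPM after sham surgery (log2 1.44, edgeR adjusted p = 0.0503).

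Mt1 (ENSMUSG00000031765.9) was the more abundant of the pair and differed less. It stood at 52.9, 59.3, 82.6, 76.9 and 95.9 CPM in TAC hearts on 332 and at 57.4, 43.1, 63.7, 56.9 and 49.7 CPM in TAC hearts on vehicle. Sham hearts held 35.0, 51.3, 47.5, 58.4 and 61.8 CPM on 332 and 45.7, 40.5 and 55.2 CPM on vehicle. The ranges of all 4 groups overlapped, with the 3 highest values in TAC hearts on 332. Between TAC and sham hearts on 332, Mt1 rose 1.45-fold (log2 0.53, SE 0.16; edgeR adjusted p = 0.0237). The call was lost without replicate 3 (log2 0.45, edgeR adjusted p = 0.0652) or replicate 5 (log2 0.45, edgeR adjusted p = 0.0587) of the TAC hearts on 332, and in either file set alone (0.55 and 0.53). Between TAC and sham hearts on vehicle the difference was 0.10 (SE 0.19; edgeR adjusted p = 0.757).

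**Figure D3:**
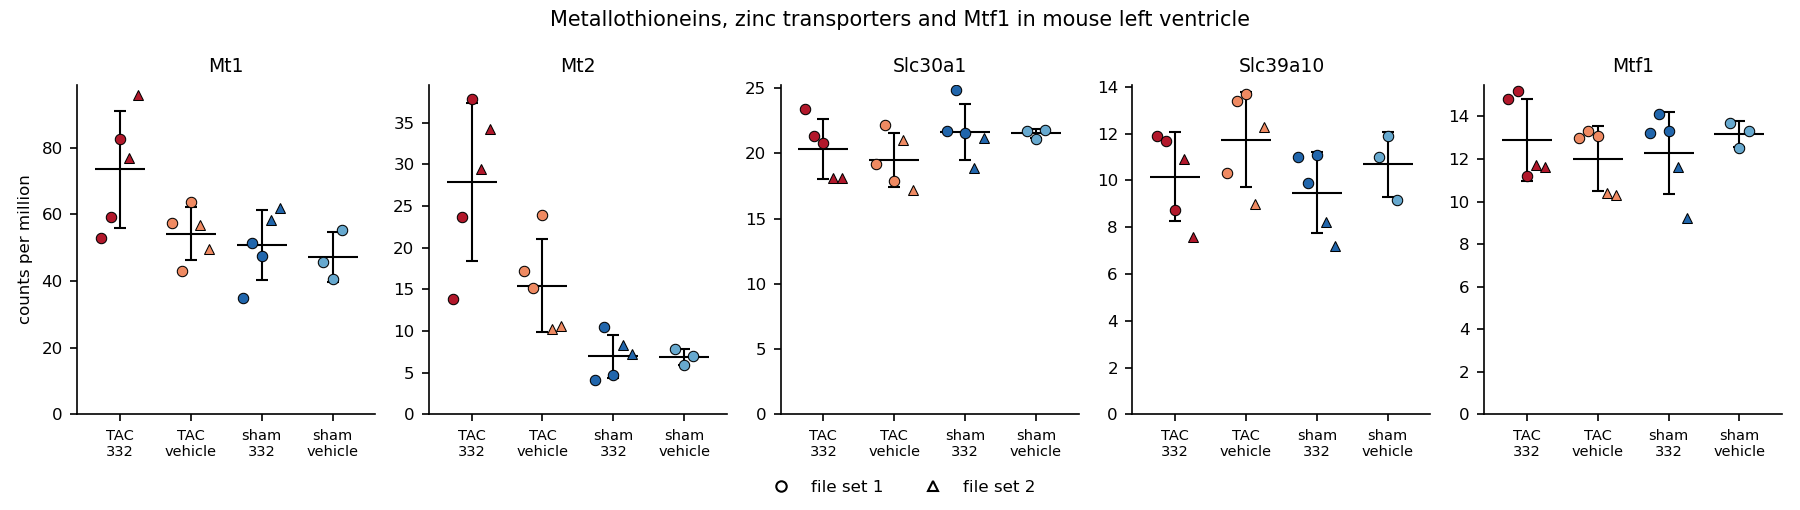
CPM of Mt1, Mt2, Slc30a1, Slc39a10 and Mtf1 in each mouse heart, on linear axes from 0. Points are hearts, with circles for file set 1 and triangles for file set 2; horizontal lines are means and bars are SDs. Mt2 lies higher after TAC than after sham surgery at each treatment (13.8 to 37.9 CPM on 332 and 10.3 to 23.9 CPM on vehicle after TAC, against 4.12 to 10.5 and 5.91 to 7.83 CPM after sham surgery), while the other panels overlap across groups.

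On TPM, a scale per length, Mt2 made up 27.1% ± 4.04 of the summed Mt1 and Mt2 level in TAC hearts on 332 (n = 5), 22.9% ± 4.78 in TAC hearts on vehicle (n = 5), 12.1% ± 3.13 in sham hearts on 332 (n = 5) and 13.2% ± 1.66 in sham hearts on vehicle (SD, n = 3). By that scale Mt1 was the highest member in each group (171, 117, 96.2 and 78.2 TPM in the same order), followed by Mt2 (65.9, 33.6, 13.5 and 11.8 TPM). Slc30a1, Slc39a10 and Mtf1 all averaged between 0.683 and 1.37 TPM and could not be ordered by their ranges, which overlapped in each group. Mt3 had the lowest mean. In rat the corresponding share of Mt2A in the summed FPKM of Mt1 and Mt2A was higher, at 41.2% ± 0.645 in knockdown cells with 915, 48.7% ± 0.891 in knockdown cells with DMSO, 37.9% ± 0.765 in scramble cells with 915 and 43.0% ± 1.11 in scramble cells with DMSO (SD, n = 3 each). The FPKM and TPM tables were made separately, so the species are not compared by a test.

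The other mouse members did not pass in any contrast. Slc30a1 (ENSMUSG00000037434.8) averaged 20.3 ± 2.29 CPM in TAC hearts on 332 and 19.5 ± 2.08 CPM in TAC hearts on vehicle, against 21.6 ± 2.15 and 21.6 ± 0.377 CPM in sham hearts. Slc39a10 (ENSMUSG00000025986.7) averaged 10.2 ± 1.94 and 11.7 ± 2.02 CPM after TAC, against 9.48 ± 1.74 and 10.7 ± 1.39 CPM after sham surgery. Mtf1 (ENSMUSG00000028890.14) averaged 12.9 ± 1.94 and 12 ± 1.52 CPM after TAC, against 12.3 ± 1.93 and 13.2 ± 0.605 CPM after sham surgery (SD, n = 5, 5, 5 and 3). Each of these genes overlapped between all groups. Mt3 had 0 to 5, 0 to 4, 2 to 8 and 2 to 5 counts in the same 4 groups and was not tested. By transcript, 98.1% of Mt1 reads and 98.6% of Mt2 reads were assigned to 1 transcript each, whereas Mtf1 reads were divided between 2 transcripts (55.8% and 40.8%).

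With TAC, 2 of 5 tested members rose and 0 fell on 332, in a fit that called 23.8% of 14047 genes. On vehicle 1 rose and 0 fell, in a fit that called 26.4%. These counts of 2 and 1 are likewise not set apart from the background. The 5 fibroblast markers moved in the same direction, summing to 450 to 778 CPM in TAC hearts on 332 and 575 to 805 CPM in TAC hearts on vehicle, against 382 to 431 and 387 to 459 CPM in sham hearts, and 3 and 4 of the 5 rose on 332 and on vehicle. The 6 cardiomyocyte markers summed to 32745 to 50366 and 31375 to 44143 CPM after TAC, against 43440 to 60274 and 42900 to 45097 CPM after sham surgery. Of the 6, 1 rose and 5 fell on 332, and 1 rose and 4 fell on vehicle. The part of these cell types in the Mt1 and Mt2 levels was not tested.

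For 332 against vehicle, edgeR's quasi-likelihood test called none of the 5 members in TAC hearts, in a fit that called 0.427% of genes, and none in sham hearts, in a fit that called 0.00712%. At an unadjusted p under 0.05 there were 2 members in TAC hearts (Mt1 and Mt2), beside 1779 of all 14047 genes. In sham hearts there were 0 members, beside 685 genes. DESeq2 called 0 members in both, beside 183 genes in TAC hearts and 5 in sham hearts. In TAC hearts Mt2 averaged 27.9 ± 9.48 CPM on 332 and 15.4 ± 5.57 CPM on vehicle (SD, n = 5 each; log2 0.87, SE 0.30; edgeR adjusted p = 0.233). Mt1 averaged 73.5 ± 17.5 and 54.2 ± 7.91 CPM (0.42, SE 0.16; edgeR adjusted p = 0.257). The file sets differed here: in set 2 Mt2 averaged 31.9 CPM on 332 and 10.5 CPM on vehicle, and this set alone passed (log2 1.60, edgeR adjusted p = 0.00943, from 2 TAC hearts on each), while in set 1 it averaged 25.1 and 18.8 CPM (0.43, edgeR adjusted p = 0.822). In sham hearts Mt2 averaged 6.97 ± 2.61 CPM on 332 and 6.93 ± 0.964 CPM on vehicle (0.06, SE 0.43) and Mt1 averaged 50.8 ± 10.5 and 47.1 ± 7.43 CPM (-0.01, SE 0.19). The difference of the 332 effects, TAC minus sham, was 0.82 (SE 0.52; edgeR adjusted p = 0.643) for Mt2 and 0.44 (SE 0.25; edgeR adjusted p = 0.589) for Mt1. The same test called 0 of the 5 members and 0.0641% of all genes for this difference. At an unadjusted p under 0.05 there were 0 members, beside 1406 genes, and DESeq2 called 0 members, beside 87 genes. Without the filter on low counts the log2 values hardly moved but edgeR called both genes. For 332 in TAC hearts the edgeR adjusted p was 2.52e-15 for Mt2 (0.87) and 7.31e-06 for Mt1 (0.42). For the difference of the effects it was 0.000389 for Mt2 (0.81) and 0.0226 for Mt1 (0.43). That fit called 671 genes for 332 in TAC hearts and 521 for the difference, against 60 and 9 with the filter. Levels of both genes overlapped between TAC hearts on 332 and on vehicle, so nothing is read from these p-values.

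**Figure D4:**
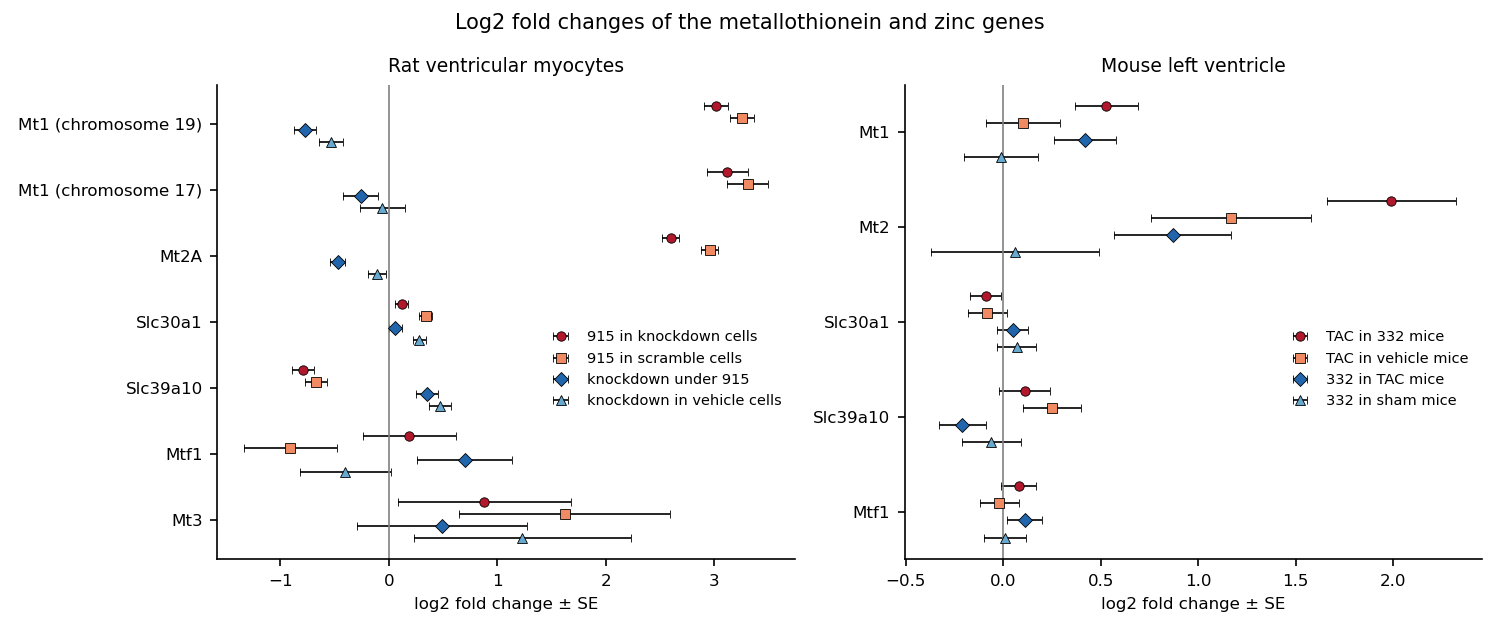
Log2 fold changes with their SEs from the fits over all genes, for the 7 rat genes in 4 contrasts and the 5 tested mouse genes in 4 contrasts. Points right of 0 are higher with 915, the knockdown, TAC or 332. Rat Mt1 and Mt2A lie between 2.60 and 3.31 with 915 and between -0.77 and -0.06 with the knockdown, and in mouse Mt2 after TAC reaches 1.99 on 332.

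The wider zinc transporter families were counted beside the members, as a description. Of all genes 35.7% and 42.2% were called with 915 in knockdown and scramble cells. With the knockdown 33.9% were called under 915 and 20.4% with DMSO, and with TAC 23.8% on 332 and 26.4% on vehicle. Among the 7 tested of 9 other SLC30 exporters in rat, 2 rose and 1 fell with 915 in knockdown cells and 4 rose and 0 fell in scramble cells, with medians of 0.17 in both, against medians of -0.0014 and 0.0073 over all genes. Slc30a2, which loads zinc into vesicles, was the most changed, at 2.20 ± 0.991 CPM with 915 and 0.725 ± 0.237 CPM with DMSO in scramble cells (log2 1.59, SE 0.41; edgeR adjusted p = 0.00283). The others that rose in scramble cells were Slc30a4 (0.37), Slc30a6 (0.28) and Slc30a5 (0.17), with Slc30a4 (0.45) and Slc30a5 (0.17) in knockdown cells, where Slc30a7 fell (-0.28). Of 12 tested SLC39 importers, 3 rose and 1 fell with 915 in knockdown cells, and 2 rose and 2 fell in scramble cells. Slc39a14, which imports zinc and iron and is induced in inflammation, rose in both (0.56 and 0.39), as did Slc39a7 (0.31 and 0.18), Slc39a6 fell in both (-0.19 and -0.41), Slc39a3 rose in knockdown cells (0.36) and Slc39a13 fell in scramble cells (-0.32).

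With the knockdown, Slc39a14 fell under 915 (-0.45, SE 0.05) and with DMSO (-0.62, SE 0.05; edgeR adjusted p = 5.63e-10), standing at 95.5 ± 2.48 CPM in knockdown and 147 ± 6.18 CPM in scramble cells with DMSO (SD, n = 3 each). Slc30a4 fell likewise (-0.35 and -0.43), as did Slc30a3 (-0.57 and -0.52) and Slc39a1 (-0.13 and -0.21). Slc30a9 fell under 915 (-0.24) and Slc39a6 rose (0.37), while Slc30a7 (0.27) and Slc39a2 (0.69) rose with DMSO. In all, 0 SLC30 genes rose and 3 fell of 7 under 915, and 1 rose and 2 fell with DMSO. For SLC39, 1 rose and 2 fell of 12 at each level of 915.

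In mouse, of 5 tested SLC30 genes 1 rose with TAC on 332 and 1 on vehicle, Slc30a4 in both (0.46, SE 0.11, and 0.58, SE 0.13). Of 10 tested SLC39 genes, 3 rose and 1 fell on 332, and 3 rose and 0 fell on vehicle. Slc39a6 (0.78 in both) and Slc39a1 (0.20 and 0.25) rose in both, Slc39a7 rose on 332 (0.31) and Slc39a14 on vehicle (0.41). Slc39a8 fell on 332 (-2.33, SE 0.50; edgeR adjusted p = 0.00194), with low levels of 0.348 ± 0.329 CPM after TAC and 1.81 ± 0.893 CPM after sham surgery (SD, n = 5 each). No gene of either family was called for 332 in TAC or sham hearts by edgeR.

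**Figure D5:**
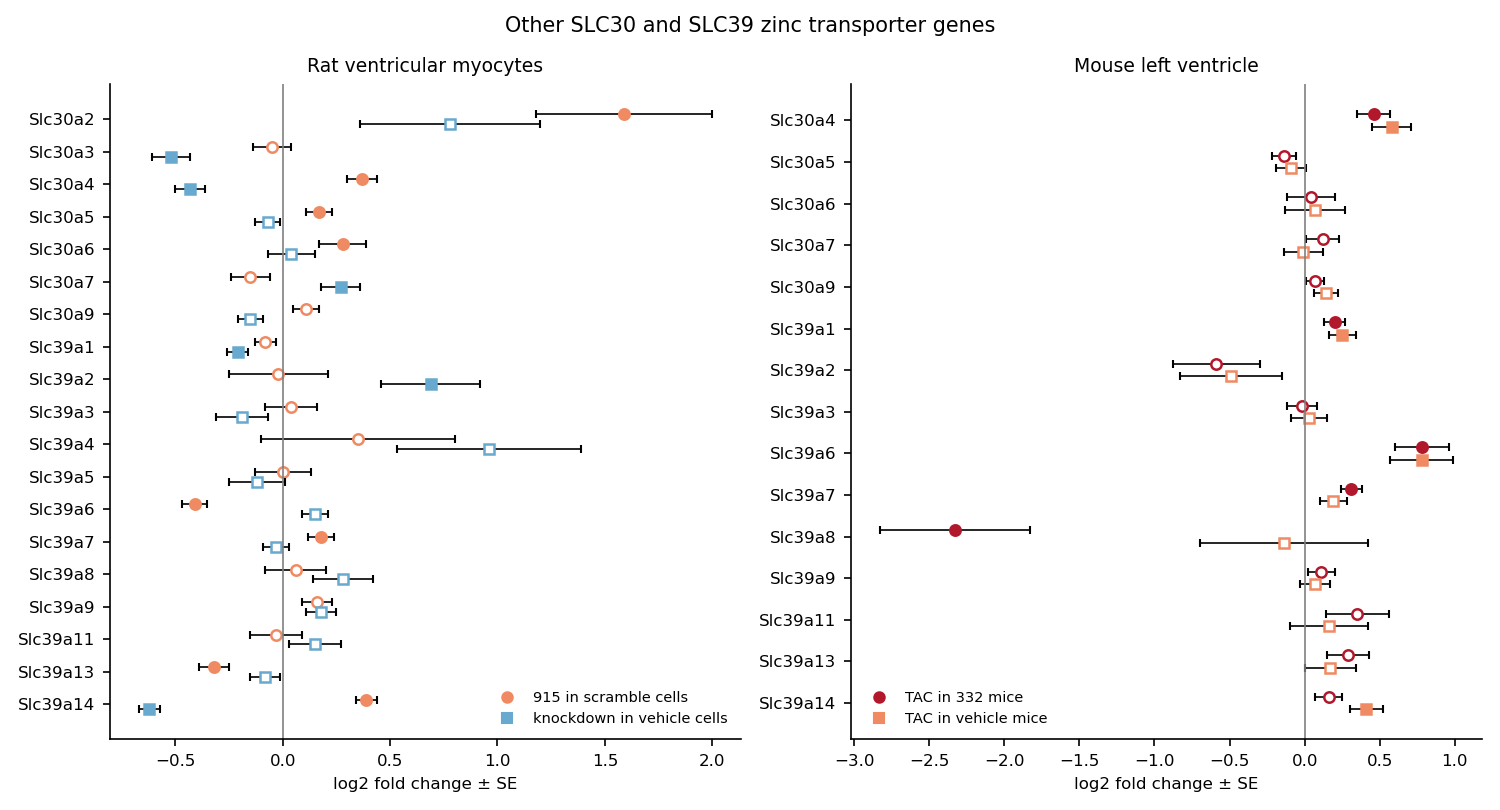
Log2 fold changes with SEs of the tested SLC30 and SLC39 genes other than the members, for 915 and the knockdown in rat and for TAC on 332 and on vehicle in mouse. Filled symbols passed an adjusted p of 0.05 in edgeR's quasi-likelihood test and open symbols did not. In rat Slc30a2 stands farthest from 0 (1.59 with 915 in scramble cells), and with the knockdown in DMSO cells the values run from -0.62 (Slc39a14) to 0.96 (Slc39a4, open symbol), while in mouse Slc39a8 stands lowest at -2.33.

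Other genes of metal and stress pathways were counted beside the members, and up to 3 called genes with the largest change are named for each comparison. The lists came from general knowledge but were written with earlier results of these data known, so their counts are a description. Of all genes 35.7% and 42.2% were called with 915 in knockdown and scramble cells. With TAC 23.8% were called on 332 and 26.4% on vehicle. Of 11 tested metal and oxidative stress genes, 9 rose and 1 fell with 915 in both knockdown and scramble cells. In knockdown cells Hmox1, the heme oxygenase, changed most (log2 1.05, SE 0.05), then Slc7a11, the cystine importer (0.85), and the chaperone gene Hspa1b (0.74). In scramble cells Srxn1, sulfiredoxin, changed most (1.01, SE 0.06), then Hmox1 (0.84) and Txnrd1, a thioredoxin reductase (0.72). With TAC 7 of 11 rose and 0 fell on 332, with the heat shock genes Hspa1a (3.71, SE 1.24), Hspb1 (1.11) and Hsph1 (0.89) in front. Hspa1a stood at 1.72 to 119 CPM (mean 26.7, SD 51.7) in these TAC hearts, overlapping sham hearts on 332 (0.582 to 3.59 CPM). On vehicle 7 rose and 1 fell, with Hspa1a (4.79, SE 1.58), Hspa1b (4.05, SE 1.41) and Hsph1 (1.45). There Hspa1a stood at 7.88 to 62.2 CPM after TAC and 1.22 to 1.49 CPM after sham surgery. Hspa1b stood at 8.85 to 92 and 2.17 to 2.89 CPM.

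Among 4 tested genes reported elsewhere as targets of MTF-1, 1 rose and 2 fell with 915 in knockdown cells, and 0 rose and 2 fell in scramble cells. Pgf, a placental growth factor, fell most (-0.68 and -1.43), then Csrp1 (-0.25 and -0.42), and Ndrg1 rose in knockdown cells (0.32). With TAC, Pgf fell in mouse (-0.79 on 332 and -0.82 on vehicle) and no other of the 5 was called. Of 10 tested copper handling genes, 2 rose and 1 fell with 915 in knockdown cells, namely Atox1, a cytosolic copper chaperone (0.56), Commd1 (0.26) and Atp7a, a copper exporter (-0.29). In scramble cells 2 rose and 2 fell, with Cox17 (0.45), Slc31a2 (-0.41) and Atp7a (-0.30) in front. With TAC on 332 Atox1 rose (0.45) and no other copper gene was called, while on vehicle 2 rose and 2 fell, with Cp, ceruloplasmin (0.54), Ccs (-0.33) and Sco1 (0.32).

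Of 7 tested cytokine and acute phase genes, 6 rose and 0 fell with 915 in knockdown cells and 5 rose and 1 fell in scramble cells. Hamp, which encodes the iron hormone hepcidin (2.26 and 2.18), Lcn2, a siderophore-binding protein (2.11 and 1.88), and Il6 (1.55 and 0.82) changed most. With TAC 3 of 6 rose on 332 (Timp1 3.20, SE 0.77, Serpina3n 2.70, SE 0.74, and Stat3 0.36) and 4 on vehicle, with Timp1 (4.13, SE 1.06), Socs3 (4.89 ± 1.87 CPM in TAC and 1.94 ± 0.584 CPM in sham hearts) and Stat3 (0.68). Of 10 tested entries for glucocorticoid-responsive genes, 4 rose and 1 fell with 915 in knockdown cells, with Ddit4 (0.71), Zbtb16 (0.65) and Fkbp5 (0.64) in front. In scramble cells 2 rose and 1 fell, namely Zbtb16 (1.17), Ddit4 (0.58) and Dusp1 (-0.45). With TAC 0 rose and 1 fell of 9 on 332, Klf9 (-0.52), and 2 rose and 2 fell on vehicle, with Zbtb16 (1.28, SE 0.42), Fkbp5 (0.90) and Tsc22d3 (-0.51).

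With the knockdown under 915, 5 of the 11 metal and oxidative stress genes rose and 5 fell, with Txnrd1 (-1.02, SE 0.05), Srxn1 (-0.76) and Bag3, a chaperone partner (-0.71), in front. With DMSO 2 rose and 5 fell, with Bag3 (-0.60), Txnrd1 (-0.50) and Hspb1 (0.39). Of the MTF-1 targets 3 rose and 0 fell of 4 under 915 (Pgf 0.89, Ndrg1 0.51 and Csrp1 0.43) and 1 rose with DMSO (Csrp1, 0.26). Of the 10 copper genes 4 rose and 1 fell under 915, with Slc31a2 (0.65), Cox17 (-0.63) and Cp (0.52) in front, and 1 rose and 1 fell with DMSO (Slc31a2 0.30 and Commd1 -0.26). The 7 acute phase genes had 4 higher and 2 lower under 915 (Hamp at -2.38, Il6 at 7.84 ± 0.0762 CPM in knockdown and 3.18 ± 0.938 CPM in scramble cells, and Timp1 at 0.88 in front) and 3 higher and 2 lower with DMSO (Hamp -2.45, Lcn2 0.57 and Timp1 0.54). The 10 glucocorticoid entries had 6 higher and 1 lower under 915 (Per1 0.61, Zbtb16 -0.59 and Dusp1 0.57 in front) and 4 higher and 0 lower with DMSO (Dusp1 0.40, Sgk1 0.35 and Per1 0.30). Of all genes 33.9% were called under 915 and 20.4% with DMSO, and no share here is read as particular to a list.

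The genes whose levels across the 12 rat libraries were most like Mt2A, by Pearson correlation of log2 CPM among genes that are no members and average at least 5 CPM, were Slc2a1 (0.996), Kat8 (0.994), Gdf15 (0.991), Smyd5 (0.991) and Mafg (0.990). The 2 Mt1 identifiers reached 0.994 and 0.993, Slc30a1 0.665 and Slc39a10 -0.873. The libraries share 4 groups that differ widely, so these values mostly follow the group means. Slc2a1, the basal glucose transporter, averaged 279 ± 4.91 CPM in knockdown cells with 915 and 135 ± 4.92 CPM with DMSO, and 318 ± 9.76 CPM in scramble cells with 915 and 148 ± 8.23 CPM with DMSO. Gdf15, a stress cytokine, averaged 451 ± 24.5 and 205 ± 2.06 CPM in knockdown cells, and 476 ± 22.7 and 216 ± 10.0 CPM in scramble cells (SD, n = 3 each).

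For mouse Mt2, over 18 hearts with the file set means removed, the most alike were Arl2bp (0.891), Cib1 (0.879), Cyb561a3 (0.877), Ifitm3 (0.875) and Jpt1 (0.870), and the member Mt1 reached 0.843. Group means were not removed, so these values partly follow the difference between TAC and sham hearts. The file sets also hold the groups in unequal parts, with no sham vehicle heart in set 2. Arl2bp averaged 68.7 ± 9.87 CPM in TAC hearts on 332 and 64.1 ± 4.12 CPM in TAC hearts on vehicle, against 53.8 ± 3.57 CPM in sham hearts on 332 and 48.6 ± 1.78 CPM in sham hearts on vehicle. In the GENCODE annotation of GRCm38 it lies on chromosome 8, 493 kb from Mt2, and the other 4 genes lie on other chromosomes. Slc30a1 had -0.411, Mtf1 0.135 and Slc39a10 0.059.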

How the data were processed

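Rat gene counts and FPKM values were deposited by the authors in 1 table with gene coordinates; per the submitters' processing notes the build was rn6 and the tools were featureCounts 1.5.0-p3, HISAT2 2.0.5, DESeq2 1.20.0 and StringTie 1.3.3b. Mouse expected counts and TPM per transcript were deposited in 1 table per heart, and per the submitters' processing notes fastp, Salmon and DESeq2 were used; the build is not given in the sources used here. The 140790 mouse transcripts were summed to 54307 genes, of which 7.43% of values were not whole within 1e-06 and were rounded. FPKM and TPM were used only to order genes.

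Genes were kept by filterByExpr with a minimum count of 10 (15181 of 32545 rat and 14047 mouse genes). The main test was the robust quasi-likelihood F-test of edgeR 4.0.16 in R 4.3.3 with TMM scaling, adjusted by Benjamini-Hochberg over all tested genes at 0.05. Each species was fitted as 4 groups, with a file set term for the 18 mouse libraries. CPM use TMM-scaled library sizes. Simulated counts with 200 changed genes per comparison were also run through the fits. They had the same spread for all genes and no file set effect, unlike the data, so nothing is read from them. Alternatives were RLE size factors, no filter, a minimum count of 50, DESeq2 1.42.0, only the groups compared, a replicate block, each library left out, no file set term, each file set alone and the Mt1 identifiers summed. No 2 libraries held identical values.

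The members and lists were chosen with earlier results of these data known. Named genes are all members, the called SLC30 and SLC39 genes, up to 3 called genes with the largest change from each other list in each comparison named, and the 5 genes most like Mt2A or Mt2; Mt1m and Mt4 were added as family. All 6 mouse members matched RefSeq promoter windows.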

Additional observations from a re-analysis of the deposited data

How the results depend on the processing

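Of 947 repeats of the members' log2 values under the alternatives, 910 kept their side of the threshold, or moved by less than the spread between replicates where no test was used. Of the others 14 lost a call, 6 gained one and 17 moved. No called value changed direction, and 32 uncalled values changed sign, among them values near 0 that are counted in the 910. Depth limits rat Mtf1 and Mt3 and mouse Mt3. The cause of the changes below was not tested.

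For the difference of the 915 effects, 1 member, Mt2A, was called with no filter, with DESeq2 and with the replicate block. With 1 library left out, 0 to 1 members and 259 to 677 genes were called (566 genes in the full fit). For TAC in vehicle hearts, 0 members were called in file set 1 alone and with the replicate block. With 1 library left out, 0 to 1 members and 2437 to 3747 genes were called (3703 genes in the full fit, and 2437 without sham vehicle replicate 3). Where members called are given here without the number of all genes called, nothing is read from them. For TAC on 332, 1 member was called in each file set alone and 1 to 2 with 1 library left out, and the genes called numbered 1662 in set 1, 52 in set 2 and 2208 without the file set term (3349 in the full fit).

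For 332 in TAC hearts, the members called were 2 with no filter and 1 in file set 2 alone, and the genes called were 671 with no filter, 183 with DESeq2, 30 with only the groups compared, 13 without the file set term, 10 in set 1, 3 in set 2 and 22 to 94 with 1 library left out (60 in the full fit). For 332 in sham hearts the genes called were 191 with no filter, 5 with DESeq2, 28 with only the groups compared, 0 without the file set term, 12 in set 1 and 0 to 2 with 1 library left out (1 in the full fit). For the difference of the 332 effects, 2 members were called with no filter, and the genes called were 521 with no filter, 15 at a minimum count of 50, 87 with DESeq2, 0 without the file set term, 5 in set 1 and 0 to 25 with 1 library left out (9 in the full fit).

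Replicate numbers showed no pairing of the samples. Deviations of same-numbered rat libraries correlated at -0.073 to 0.051 over 18 pairs, and those of mouse at -0.385 to 0.118 over 24 pairs once the file set was removed. The 24 are not all independent. File set 2 held 2 hearts of a group, so replicates 4 and 5 gave the same value (-0.385 for TAC hearts on 332 and on vehicle). The replicate block changed no other count of members.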
